A study of Mus musculus with 16 samples.

Results

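Genes whose transcript level at E11.5 lay outside the levels at both the earlier and the later stage were taken from a contrast of E11.5 with the average of the E9.5 and E13.5 means. Of 18193 genes measured, 4909 (27%) were higher and 4776 (26.3%) lower in that contrast at an adjusted p under 0.05, 53.2% in all. A contrast with an average can be called when E11.5 differs from only 1 of the stages, so 2 further conditions were set. The E11.5 mean had to lie beyond both stage means, as it did above them for 31.6% and below them for 29.7% of all genes. The second-brightest probe set of the gene had to have the same sign in the contrast, where the gene had one. This left 5811 genes, 2920 higher at E11.5, called peaks here (16.1%), and 2891 lower, called troughs (15.9%).

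The transcripts were measured in heads of mouse embryos, for a study of early brain development, on 6 arrays at E9.5, 4 at E11.5 and 6 at E13.5. The labels give no strain, genotype, sex or treatment, name the source only as embryonic tissue, and call the arrays of a stage biological replicates. RNA of all 3 stages was extracted with 1 kind of column kit. The E9.5 and E11.5 RNA was labelled with a one-cycle transcription kit and the E13.5 RNA with an amplification kit of another maker. Stage and labelling kit cannot be told apart in any difference from E13.5, and each peak or trough rests in part on such a difference. In bulk tissue, fewer cells of a type and less RNA per cell cannot be told apart either.

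A stricter count asked for a difference from each stage. For each gene the larger p of E11.5 against E9.5 and E11.5 against E13.5 was taken where both differences had the same sign, and it was adjusted over all genes. By this limma test 1473 peaks (8.1%) and 1328 troughs (7.3%) that also met the probe set condition were separated from both stages. Both differences use the same 4 E11.5 arrays, so a deviation of those arrays enters both. The distance of a gene is its log2 difference from the nearer of the stages. The median distance was 0.49 for peaks and for troughs, and 123 peaks and 75 troughs lay at least 2-fold beyond both stages. At the edge of the call stood Rpl7 (distance -0.196 ± 0.069 SE, adjusted p 0.0499), the last inside, and Ifitm5 (-0.437 ± 0.154), the first outside. The 4 E11.5 arrays lay beyond all 12 others for 978 of the separated peaks and 907 of the separated troughs. Over all genes they lay above all others for 8.26% and below all others for 6.7%.

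Further probe sets are the only repeat measures of a gene within these arrays, and the second-brightest repeated the E11.5 contrast poorly. Before the probe set condition, 2020 peaks (11.1%) and 1664 troughs (9.15%) were separated from both stages. Of the 2135 of these genes with a second probe set, 1252 (58.6%) had the same sign there, against 5067 of 9010 (56.2%) over all genes with several probe sets. The share was 56.6% for peaks and 61.6% for troughs, and 63.6% where the other probe set had a mean log2 intensity of 7 or more. The probe set condition therefore removed close to as large a share of the separated genes as it would of all genes. Counted by the strictest reading, with both probe sets themselves separated in the same direction, 194 peaks (1.07%) and 177 troughs (0.973%) were left. Only 714 of the separated peaks and 538 of the separated troughs had a second probe set. Genes with a single probe set cannot meet this reading, here and in the lists below. Of the 60 genes named by rule that had a second probe set, 27 were still separated with it in place of the brightest, and 33 were not. Those genes were chosen partly by their second probe set, so this share is no check on the calls.

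The same pairs of probe sets repeated the E11.5 contrast less well than other contrasts, by a comparison added after the plot of both probe sets was seen. Over the 9010 genes with several probe sets, the difference of E13.5 from E9.5 had a Pearson correlation of 0.62 between the brightest and the second-brightest probe set. The correlation was 0.41 for E11.5 against E9.5, 0.34 for E11.5 against E13.5 and 0.19 for E11.5 against the mean of both. With second probe sets at a log2 intensity of 7 or more (2380 genes), it was 0.73 for E13.5 against E9.5 and 0.26 for the E11.5 contrast. Among genes called in the brightest probe set, 71.3% had the same sign in the second for E13.5 against E9.5 and 57.8% for the E11.5 contrast. These are correlations across genes, which share arrays and are not independent, and the contrasts differ in size, with SDs over genes of 0.95 and 0.53. The second probe set thus repeated the E11.5 contrast less well than the difference of the flanking stages. How far the smaller spread lowered the correlation was not tested. A peak or trough seen in 1 probe set is a measurement of that probe set. The cause was not tested.

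The size of the peaks also went with the class of the probe set. Probe sets marked _x_at hold probes that also match other transcripts, by the maker's naming. Of 642 genes measured by one, 30 (4.67%) were peaks of at least 2-fold before the probe set condition, against 114 of 14506 (0.786%) with a plain probe set. Troughs of at least 2-fold were 4 (0.623%) and 54 (0.372%) in the same classes. In 2 other classes, _a_at (2119 genes) and _s_at (926 genes), such troughs were 0.85% and 1.08%. Separated troughs of any size were 14.35% and 11.99% there, against 8.20% with a plain probe set. Separated peaks were 10.24% and 12.53%, against 10.77%. Of the troughs named below by rule, Mrpl52, Naca, Pmm1, Utp11, Raly, Myc, Rps15, Ndufb10 and Ndufs7 were measured by _a_at probe sets. The same held for Psmb3, Psmd13, Psmd4, Pmvk, Tnnt1, Acta1, Emcn, Srsf5 and Snrpa1. Hacd1, Tcfl5, Tsr1 and Dsp were measured by _s_at, and Ndufs8, Rpl13a and Aldoa by _x_at probe sets. The other troughs named by rule had plain probe sets. Sema3f, Csdc2 and Hes5, among the 12 largest peaks by the rule for genes with several probe sets, were measured by _x_at probe sets. The part of matches to other transcripts, or of the class of the probe set, in the results was not tested.

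**Figure D1:**
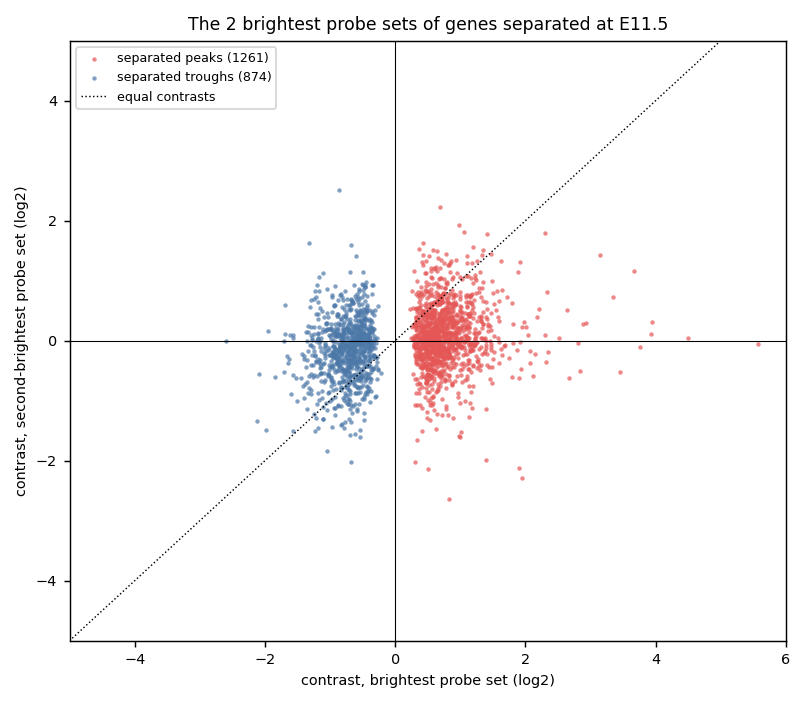
Contrast of E11.5 with the mean of the flanking stages (log2) in the brightest probe set of a gene (x axis) and in the second-brightest (y axis), for the 2135 separated genes with a second probe set, before the condition on sign. Peaks are red, troughs blue, and the dotted line marks equal contrasts; points lie on both sides of 0 on the y axis, and 58.6% have the same sign in both.

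Between these stages the neural tube of the head turns from a sheet of dividing progenitors into a tissue that makes its first neurons. Notch signalling holds neighbouring cells in the progenitor state through repressors of the Hes family, while cells with more Delta ligand switch on proneural and post-mitotic transcription factors. In the same days the first blood cells, which come from the yolk sac and carry embryonic globins, fill the circulation, and neural crest mesenchyme builds the face. Ribosomes, proteasomes and mitochondria are made of many subunits whose genes are often expressed in step.

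The promoters of 4 genes, 1 from each of 4 groups described below, are shown as the 250 bases before the RefSeq start in GRCm38.p6, read 5′ to 3′ along the gene. Hes5, the Notch target (chr4:154960673-154960922, plus strand), has TGGGAA in capitals, the core letters bound by the Notch partner Rbpj. Hbb-y, an embryonic beta-like globin (chr7:103853208-103853457, minus strand), has CCACCC in capitals, a CACCC box. Mrpl52, a subunit of the mitochondrial ribosome (chr14:54426659-54426908, plus strand), has CTTCCGG in capitals, letters of ETS factor sites. Insig1, a sterol-regulated membrane protein (chr5:28071162-28071411, plus strand), has CCAAT in capitals. Capitals also mark the letters of the opposite strand.
Hes5: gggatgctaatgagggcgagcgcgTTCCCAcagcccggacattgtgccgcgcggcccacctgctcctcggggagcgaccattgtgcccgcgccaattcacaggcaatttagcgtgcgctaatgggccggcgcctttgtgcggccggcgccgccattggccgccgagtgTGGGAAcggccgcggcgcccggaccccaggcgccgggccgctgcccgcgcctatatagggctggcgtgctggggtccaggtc
Hbb-y: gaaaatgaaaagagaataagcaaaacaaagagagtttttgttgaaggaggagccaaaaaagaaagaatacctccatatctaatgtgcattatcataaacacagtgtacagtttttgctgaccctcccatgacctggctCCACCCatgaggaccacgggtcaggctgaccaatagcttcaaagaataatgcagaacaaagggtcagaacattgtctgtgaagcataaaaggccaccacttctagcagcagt
Mrpl52: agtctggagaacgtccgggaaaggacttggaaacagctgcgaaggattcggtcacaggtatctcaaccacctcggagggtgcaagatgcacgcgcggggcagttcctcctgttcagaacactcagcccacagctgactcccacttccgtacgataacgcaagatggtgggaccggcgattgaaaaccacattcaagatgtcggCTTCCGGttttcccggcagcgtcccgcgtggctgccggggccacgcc
Insig1: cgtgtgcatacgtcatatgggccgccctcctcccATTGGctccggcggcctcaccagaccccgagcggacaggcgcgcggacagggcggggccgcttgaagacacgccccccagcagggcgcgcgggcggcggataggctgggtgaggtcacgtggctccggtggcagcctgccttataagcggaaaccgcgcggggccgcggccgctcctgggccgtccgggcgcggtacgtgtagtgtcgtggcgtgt

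In Hes5 the letters began 226 bases before the start (opposite strand) and 82 bases before it. In Hbb-y they began 112, in Mrpl52 47 and in Insig1 216 (opposite strand) bases before the start. In all, 14 motifs were searched on both strands in 7 gene lists, and those shown were chosen after the counts were seen. The motifs were TGGGAA for Rbpj, AGATAA for GATA factors, CCACCC and the longer CACACCC for CACCC boxes, CAGCTG with its variants CAGATG and also CACGTG as E-boxes, and CCAAT for the CCAAT box. Others were TATAA and the longer TATTTAAAG for TATA boxes, TTCCGG, which lies within the longer CTTCCGG, for ETS factors, ATCACCCC for a sterol element and the palindrome bound by the Nrf1 factor. CCAAT was present in 15 of 16 promoters of cholesterol synthesis genes, against 34.5% of 27025 promoters. CCACCC was present in 13 of 28 red cell promoters, 27.7% of all and 32.8% of those of the genes tested. CTTCCGG was present in 11 of 31 promoters of cytosolic ribosomal proteins, 16 of 67 of mitochondrial ribosomal proteins 8 of 25 of proteasome genes and 4 of 36 of oxidative phosphorylation genes, and in 7.05% of all. It was in 15.8% of the promoters of separated troughs, 8.25% of those of separated peaks and 10.6% of those of the genes tested. TGGGAA was present in 21.5% of all promoters and in 4 of 19 promoters of early neuron transcription factors. A match of letters is a description and not a bound site.

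Values on these arrays are relative to the other transcripts, with an array median of 5 on the log2 scale on every array. Bacterial hybridisation controls (18 probe sets), which are added after labelling, were themselves high at E11.5. Their mean log2 intensity was 10.47 ± 0.54 (SD, n = 6) at E9.5, 11.44 ± 0.24 (n = 4) at E11.5 and 9.88 to 10.08 on the 6 E13.5 arrays. The difference of E11.5 from the 12 other arrays was 1.21 (two-sided exact permutation p = 0.00165, adjusted over 5 control measures 0.00824, where the smallest possible p was 0.000549). Poly-A spike-ins, 18S ribosomal RNA and the 3′ to 5′ differences of actin and Gapdh did not pass that test, with exact permutation p of 0.229 to 0.587. That test sets E11.5 against both other stages together, and E9.5 stood apart in the spike-ins and 18S ribosomal RNA. The poly-A spike-ins had means of 8.12 ± 0.25 at E9.5 and 5.67 ± 0.15 at E11.5, and lay at 5.25 to 5.51 on the E13.5 arrays. For 18S ribosomal RNA the means were 7.25 ± 0.42, 10.19 ± 0.30 and 10.74 ± 0.16. In both the E9.5 and E11.5 arrays did not overlap, so these controls differed within the pair of stages labelled with 1 kit. The E9.5 sample 13 had a hybridisation control level of 11.45, within the E11.5 range of 11.15 to 11.74. On that array the cytosolic ribosomal proteins had a mean of 12.02, the lowest of the E9.5 arrays (up to 12.12), where the E11.5 arrays lay at 11.71 to 11.77. The early neuron transcription factors had a mean of 5.35 on it, where the E11.5 arrays lay at 6.79 to 6.89. These levels come from a single array and from chosen lists. The part of these controls in the results was not tested.

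Of the 37 gene lists written for this report and 2 added later, 20 are described in detail below, chosen after the counts of all lists were seen. Each list is given by its number of separated members, to be read against 8.1% peaks and 7.3% troughs over all genes, and by its median contrast, which was 0.0016 over all genes.

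**Figure D2:**
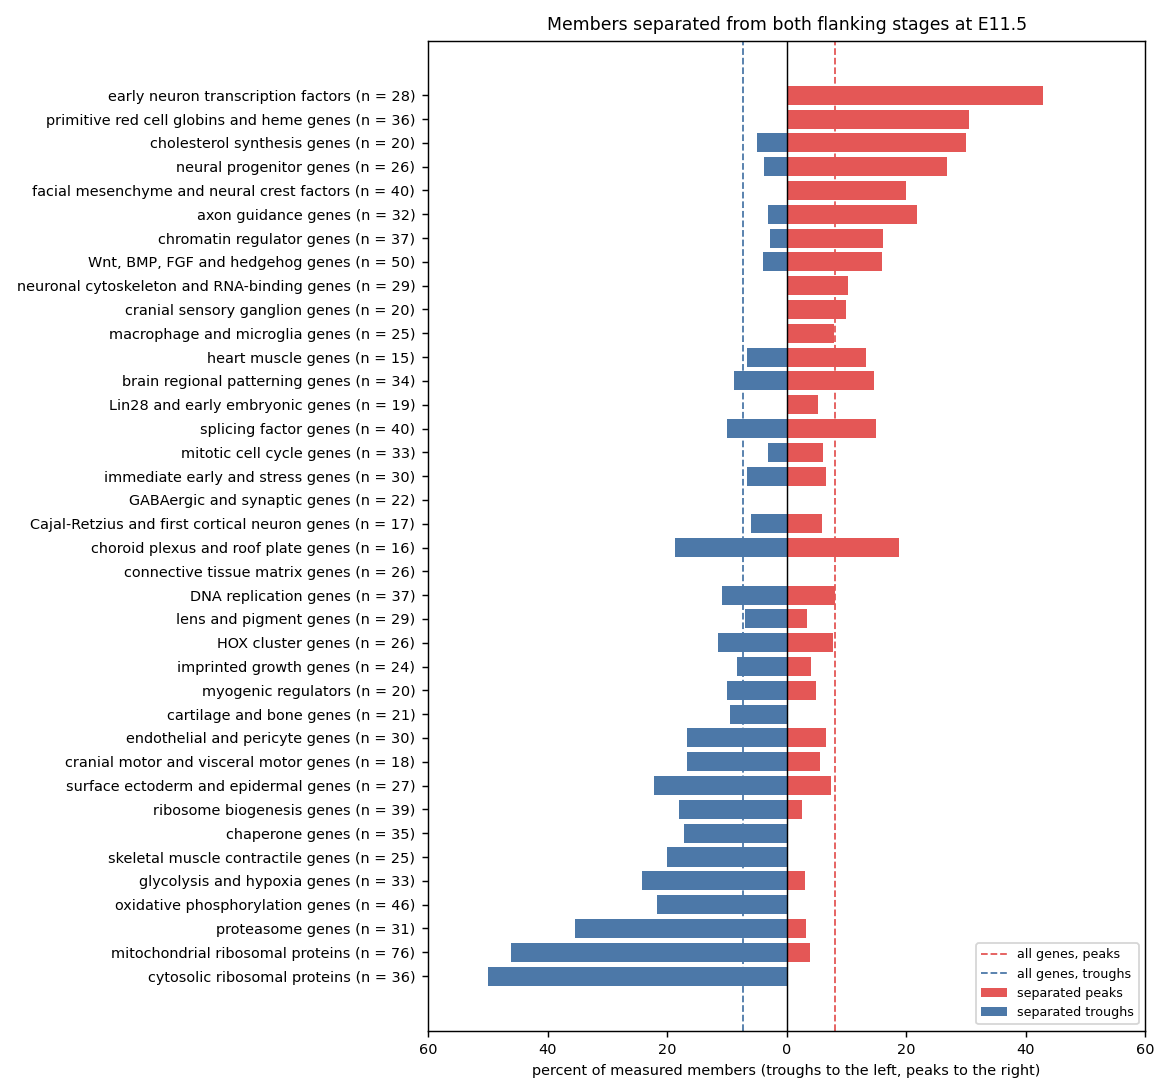
Percent of the measured members of each gene list that were separated from both flanking stages at E11.5, as peaks (red, to the right) or troughs (blue, to the left). Dashed lines mark the shares over all genes, 8.1% and 7.3%; early neuron transcription factors have the longest bar to the right (42.9%) and cytosolic ribosomal proteins the longest to the left (50%).

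Among transcription factors of newly formed neurons, 12 of 28 measured were separated peaks and 16 did not pass. None was a separated trough, and the list's median contrast was 0.85. The count was 11 or 12 with any 1 array left out and 8 with the second-brightest probe sets. In that alternative a gene with a single probe set keeps it, here and in the lists below. Of the 12 peaks, 8 had a second probe set, and 4 were separated in both. The list's mean log2 level was 5.33 to 5.80 on the E9.5 arrays, 6.79 to 6.89 on the E11.5 arrays and 6.40 to 6.47 on the E13.5 arrays. The arrays of the 3 stages thus did not overlap on this mean, and E13.5 stayed above E9.5.

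Nhlh2, a helix-loop-helix factor of early post-mitotic neurons measured by a single probe set, had log2 intensities of 3.91, 5.54 and 6.27 (lowest, median and highest) at E9.5. At E11.5 it was at 9.51, 9.47, 9.73 and 9.45, and at E13.5 at 7.38, 7.54 and 7.78. All 4 E11.5 arrays lay above all others, at a distance of 2.0 ± 0.35 SE from E13.5 (3.99-fold, limma adjusted p 0.00023). The E9.5 arrays were spread over more than the later ones.

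Pou3f2, a POU factor of neural progenitors and neurons, was at 6.02, 6.17 and 6.58 at E9.5 and at 5.91, 6.22 and 6.29 at E13.5. At E11.5 it was at 7.81, 7.12, 7.69 and 7.50, again above every other array. Its distance was 1.32 ± 0.13 from E9.5 (2.5-fold, adjusted p 1.8e-07), and its second probe set was separated too, with a contrast of 0.67. The flanking stages overlapped for this gene, unlike for Nhlh2.

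St18, a zinc finger factor of the Myt1 family, was at 3.17, 4.60 and 5.13 at E9.5, at 7.91, 8.09, 7.69 and 8.08 at E11.5 and at 6.15, 6.30 and 6.57 at E13.5 (distance 1.61 ± 0.29 from E13.5, adjusted p 0.00030). Its second probe set had a contrast of 0.51 and was not itself separated. Of the other 9 separated factors, Insm1, Scrt2 and Onecut2 were separated in both probe sets, with distances of 0.67, 0.83 and 0.99. They are named after their values were seen, as is Atoh1, the proneural factor of the rhombic lip, at a distance of 1.06 with a single probe set. Neurog2, a proneural factor upstream of many of these genes, was no peak. It was at a median of 6.38 at E9.5, 8.60 at E11.5 and 8.87 at E13.5, and the E11.5 and E13.5 arrays overlapped.

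**Figure D3:**
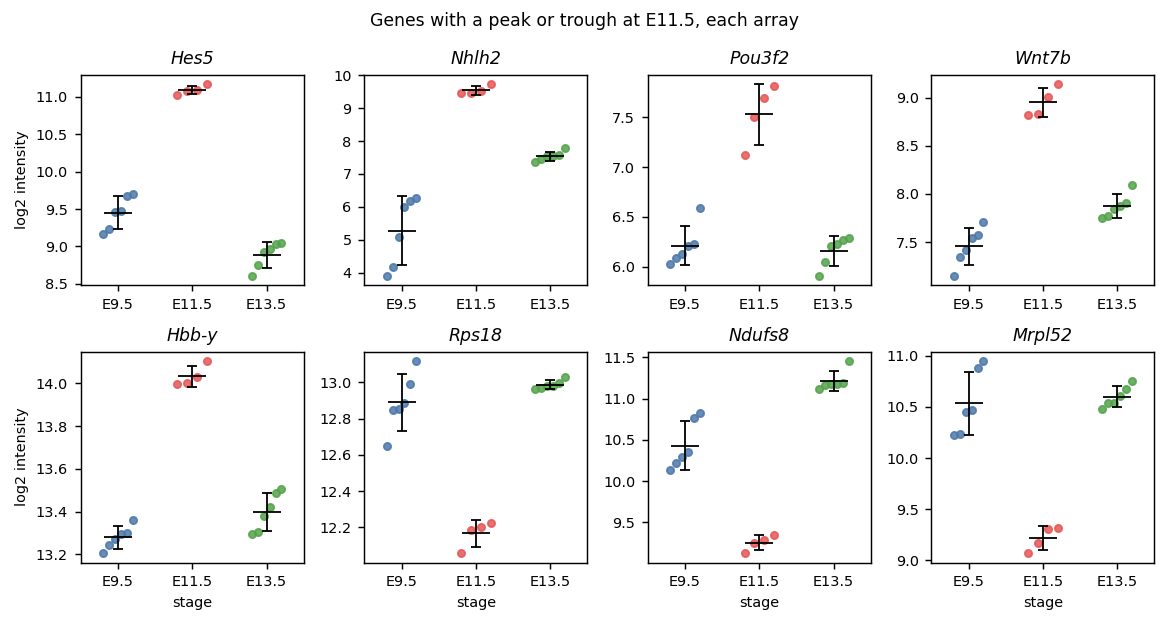
Log2 intensity of 8 genes on each array at E9.5 (blue, n = 6), E11.5 (red, n = 4) and E13.5 (green, n = 6), 1 panel and y axis a gene; lines are means and bars SD. The E11.5 arrays of Hes5, Nhlh2, Pou3f2, Wnt7b and Hbb-y lie above all others, and those of Rps18, Ndufs8 and Mrpl52 below all others.

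Genes of neural progenitors and of Notch signalling gave 7 separated peaks and 1 separated trough of 26 measured, with a median contrast of 0.53. Of these peaks, 5 had a second probe set, and only 1 was separated in both. Hes5, a repressor that Notch switches on and whose promoter is shown above, was at 9.17, 9.47 and 9.70 at E9.5. It was at 11.08, 11.09, 11.03 and 11.17 at E11.5 and at 8.61, 8.95 and 9.04 at E13.5. The 4 E11.5 arrays lay close together and above all others, 1.64 ± 0.11 beyond E9.5 (3.12-fold, adjusted p 1.7e-09). The second probe set of Hes5 was separated as well, with a contrast of 1.31.

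Hes1, the related repressor with a single probe set here, was the trough of this list. It was at 7.43, 7.53 and 7.79 at E9.5, at 6.83, 7.04, 6.64 and 6.89 at E11.5, and at 7.60, 7.76 and 7.88 at E13.5 (distance -0.70 ± 0.09 from E9.5, adjusted p 5.8e-06). The contrasts of these Hes genes thus had opposite signs. Dll3, a Delta-like Notch pathway ligand, was at 8.99, 9.06, 8.80 and 8.92 at E11.5, 0.97 ± 0.10 above E13.5 (adjusted p 4.1e-07), by a single probe set. Notch3, a receptor, was 0.80 ± 0.11 above E9.5 (adjusted p 1.0e-05), and its second probe set was not separated. Dll1, a further ligand named after its value was seen, had a distance of 0.60 ± 0.08. Of the progenitor markers used to check the tissue, the filament gene Nes was a separated peak (distance 0.79). The second probe set of Nes had a contrast of 1.04 and was not itself separated. Sox2, Pax6 and Fabp7 were not beyond both stages, and Fabp7 was highest at E13.5 (stage means 9.02, 10.84 and 11.86).

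Genes of differentiated neurons were separated as peaks in a share near that of all genes, 8.1%, or not at all. Of 29 genes of the neuronal cytoskeleton and neuronal RNA binding, 3 were separated peaks (10.3%) and 0 troughs, although the median contrast was 0.62. The list's mean level was 7.61 at E9.5, 9.48 at E11.5 and 10.10 at E13.5 in stage means. The peaks were Nova2, a neuronal splicing regulator (distance 0.67 ± 0.15, adjusted p 0.0020), and the tubulins Tubb2b (0.41 ± 0.10) and Tuba1a (0.36 ± 0.07). Nova2 was not repeated by its second probe set, whose contrast was 0.04 (adjusted p 0.72). Of 22 GABAergic and synaptic genes, 0 were separated in either direction. The neuronal markers Tubb3, Stmn2 and Elavl3 were highest at E13.5, and Dcx was above E13.5 by 0.52 ± 0.40 (adjusted p 0.57), which was not separated. The Dcx arrays lay at 10.84 to 10.91 at E11.5 and 10.26 to 10.44 at E13.5, with an SD of 1.23 at E9.5. The second probe set of Dcx went the other way, with stage means of 5.27, 8.98 and 10.27.

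Axon guidance genes gave 7 separated peaks and 1 trough of 32, with 3 peaks for the second-brightest probe sets and 4 with the title prefix of E13.5 samples as a random block. Sema3f, a secreted semaphorin that repels growing axons, had the largest distance of any gene named by the rule used here for genes with several probe sets. It was at 7.18, 7.60 and 8.14 at E9.5, at 11.97, 11.65, 12.28 and 11.60 at E11.5 and at 8.15, 8.24 and 8.29 at E13.5. The E11.5 arrays lay 3.64 ± 0.14 above E13.5 (12.5-fold, adjusted p 7.1e-13). The second probe set of Sema3f had a contrast of only 0.31 and was not separated, so the size of this peak belongs to 1 probe set.

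Slit2, a midline guidance ligand, was at 9.56, 9.33, 9.48 and 9.23 at E11.5, above all E9.5 arrays (8.32 to 8.80) and all E13.5 arrays (8.53 to 8.97). Its distance was 0.63 ± 0.10 (adjusted p 0.00010), and its second probe set was separated with a contrast of 1.35. The netrin receptors differed in sign. Unc5b was 0.58 ± 0.10 above E13.5 (adjusted p 0.00011) with a second probe set at 0.02, and Unc5a was 0.48 ± 0.12 below E9.5 (adjusted p 0.0051) with the E11.5 and E9.5 arrays overlapping.

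Among 50 ligands, receptors and modulators of the Wnt, BMP, FGF and hedgehog pathways, 8 were separated peaks and 2 troughs, and the median contrast was 0.0013. Wnt7b, a Wnt ligand of the forebrain and surface tissues, was at 7.15, 7.48 and 7.71 at E9.5, at 9.01, 8.82, 9.14 and 8.84 at E11.5 and at 7.75, 7.85 and 8.09 at E13.5. The E11.5 arrays lay above all others by a distance of 1.08 ± 0.10 (2.11-fold, adjusted p 1.8e-07), and the second probe set was separated with a contrast of 0.88. Fzd10, a Wnt receptor, was 1.30 ± 0.09 above E13.5 (adjusted p 3.0e-09). Its second probe set, at 0.28 (adjusted p 0.052), did not pass. Fgfr3 and Fzd2, named after their values were seen, were separated in both probe sets at distances of 0.55 and 0.33. The count of peaks was 4 with the second-brightest probe sets, and 3 peaks were separated in both probe sets. The troughs were Bmp5 (-0.60 ± 0.13, adjusted p 0.0019), whose second probe set was not separated, and Smad6 (-0.34 ± 0.11, adjusted p 0.037), an inhibitor of BMP signalling that lost its call when any of 8 arrays was left out. With the E9.5 sample 13 left out, the list held 5 troughs.

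Shh, the hedgehog ligand of the ventral midline, was at 9.23, 9.37 and 9.72 at E9.5, at 10.72, 10.88, 10.57 and 10.49 at E11.5 and at 7.66, 7.83 and 7.92 at E13.5. All E11.5 arrays were above all others (distance 1.24 ± 0.10 from E9.5, 2.35-fold, adjusted p 4.0e-08), yet the second probe set had a contrast of 0.09 (adjusted p 0.48). The regional patterning list, which also holds Shh, gave 5 separated peaks and 3 troughs of 34. Gsx1 and Nkx2-2, homeobox factors of ventral neural domains, peaked by 0.95 ± 0.10 and 0.78 ± 0.20. Gbx2, a factor of the anterior hindbrain, was 0.81 ± 0.17 below E9.5 (adjusted p 0.0016) and Gbx1 0.59 ± 0.12 below E13.5 (adjusted p 0.0012), both near the dim end of the scale. Six3, of the anterior forebrain, was 0.41 ± 0.12 below E9.5 (adjusted p 0.020) and lost its call without E11.5 sample 33 or 36.

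Genes of red blood cells gave 11 separated peaks and 0 troughs of 36 measured, with a median contrast of 0.52. The count depended on single arrays: it was 7 without E11.5 sample 33 and 17 without E11.5 sample 51. The mean level of the list was 7.14 to 7.35 on the E9.5 arrays, 7.06 to 7.66 on the E11.5 arrays and 6.43 to 6.64 on the E13.5 arrays. Sample 51 was the lowest of the E11.5 arrays and lay below all E9.5 arrays. The labels do not say how much blood each head held.

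Hbb-y, named after its value was seen and shown with its promoter above, was at 13.21, 13.29 and 13.36 at E9.5. It was at 14.00, 14.10, 14.00 and 14.03 at E11.5 and at 13.30, 13.40 and 13.51 at E13.5. The E11.5 arrays lay above all others by a distance of 0.63 ± 0.07 (1.55-fold, adjusted p 1.0e-06), and the second probe set was separated with a contrast of 0.71. Such values are near the top of the scale, and a limit of the scanner or probes there was not tested.

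Hbb-bh1, another embryonic globin, was no peak. Its median was 13.62 at E9.5, 13.31 at E11.5 and 8.70 at E13.5. Hemgn, a nuclear protein of blood precursors, had 1 probe set and was at 6.36, 6.76 and 6.91 at E9.5, at 8.48, 9.07, 6.77 and 8.11 at E11.5 and at 2.58, 2.90 and 3.32 at E13.5. Its distance was 1.38 ± 0.27 from E9.5 (adjusted p 0.00077), with sample 51 inside the E9.5 range, and 1.83 without that sample. Rhd, a membrane protein of red cells, was 1.31 ± 0.14 above E9.5 (adjusted p 5.2e-07), with the E11.5 arrays above all others. Slc25a37, which carries iron into mitochondria, was 0.81 ± 0.18 above E9.5 (adjusted p 0.0024), and sample 51 lay within the E9.5 range.

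Factors of facial mesenchyme and neural crest gave 8 separated peaks and 0 troughs of 40, with a median contrast of 0.23, and 5 peaks with the B63 arrays alone at E13.5. Alx1, a homeobox factor of the frontonasal mesenchyme, was at 6.69, 7.04 and 7.27 at E9.5, at 8.75, 8.79, 8.61 and 8.71 at E11.5 and at 7.12, 7.31 and 7.40 at E13.5. The E11.5 arrays lay above all others by 1.42 ± 0.11 (2.68-fold, adjusted p 8.6e-09), and the second probe set was separated with a contrast of 0.83. The forkhead factors Foxf1 (distance 0.73 ± 0.17, adjusted p 0.0025) and Foxc2 (0.62 ± 0.13, adjusted p 0.0017) were separated with at least 1 array overlapping, and the second probe set of Foxf1 was not separated. Twist1 and Prrx1, markers of the same mesenchyme, were not separated.

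Cholesterol synthesis genes gave 6 separated peaks and 1 trough of 20, and 3 peaks with the second-brightest probe sets. Of the separated members, 5 had a second probe set, and only 1 of the 6 peaks was separated in both. Srebf2, the transcription factor that switches on this pathway, was at 8.06, 8.25 and 8.50 at E9.5, at 9.74, 9.61, 9.77 and 9.97 at E11.5 and at 8.49, 8.69 and 8.75 at E13.5. All E11.5 arrays were higher than all others, at a distance of 1.12 ± 0.09 (2.18-fold, adjusted p 4.2e-08), while the second probe set had a contrast of 0.32 and was not separated. Hmgcs1, which makes HMG-CoA, was 0.58 ± 0.10 above E13.5 (adjusted p 0.00015) with both probe sets separated. Insig1, whose promoter is shown above, was 0.73 ± 0.12 above E13.5 (adjusted p 8.8e-05) by a single probe set. Pmvk, a kinase of the mevalonate steps, was 0.37 ± 0.09 below E9.5 (adjusted p 0.0048). The other 13 members measured were not separated.

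Among subunits of the cytosolic ribosome, 18 of 36 measured were separated troughs and 18 did not pass. None was a separated peak, and the list's median contrast was -0.30. The count of troughs was 15 to 18 with any 1 array left out and 13 to 21 under the other alternatives, lowest with quantile normalization. The list's mean log2 level was 12.02 to 12.12 on the E9.5 arrays, 11.71 to 11.77 on the E11.5 arrays and 12.02 to 12.08 on the E13.5 arrays. On this mean the E11.5 arrays lay below all others, while the flanking stages overlapped.

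Rps18, a small subunit protein named after its value was seen, was at 12.65, 12.87 and 13.12 at E9.5, at 12.20, 12.22, 12.06 and 12.19 at E11.5 and at 12.96, 12.98 and 13.03 at E13.5. The E11.5 arrays were below all others by 0.72 ± 0.08 (distance -0.72, adjusted p 1.4e-06), and the second probe set was separated with a contrast of -0.87. Rpl13a had a distance of -0.84 ± 0.06 (adjusted p 8.6e-09), Rps15 of -0.81 ± 0.07 (adjusted p 4.2e-08) and Rpl12 of -0.77 ± 0.12 (adjusted p 4.5e-05), each with the E11.5 arrays below all others. The second probe sets of Rpl13a and Rps15 had contrasts of -0.10 and -0.08, which did not pass (adjusted p 0.25 and 0.40). Ribosomal protein genes have many near-identical pseudogenes, and cross-hybridisation of their probes was not tested.

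Subunits of the mitochondrial ribosome, a list added after their values were seen, gave 35 separated troughs and 3 peaks of 76 measured, with a median contrast of -0.48. With any 1 array left out the troughs numbered 31 to 36. Mrpl52, shown with its promoter above, was at 10.23, 10.46 and 10.95 at E9.5, at 9.31, 9.32, 9.07 and 9.17 at E11.5 and at 10.48, 10.57 and 10.76 at E13.5. The E11.5 arrays lay below all others at a distance of -1.32 ± 0.13 (2.49-fold, adjusted p 1.8e-07), and the second probe set was separated with a contrast of -1.14. Mrpl45, with 1 probe set, had a distance of -1.43 ± 0.11 (adjusted p 1.3e-08). Mrps10 had one of -1.25 ± 0.15 (adjusted p 3.1e-06), and its second probe set did not pass at -0.24. The peaks were Mrpl44 (0.70 ± 0.12, not separated with its second probe set), Mrps33 (0.49 ± 0.10) and Mrpl14 (0.44 ± 0.09). In 7 of the troughs both probe sets were separated.

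Factors that assemble ribosomes in the nucleolus gave 7 separated troughs and 1 peak of 39, with a median contrast of -0.60. Their mean level was 9.64 at E9.5, 8.49 at E11.5 and 8.45 at E13.5. Tsr1, needed for the small subunit, was 0.98 ± 0.10 below E13.5 (distance -0.98, adjusted p 2.2e-07), with a second probe set that was not separated, and Nop58, a core protein of small nucleolar particles, had a distance of -0.82 ± 0.11 (adjusted p 1.2e-05). Nop10, a protein of another class of such particles, was the peak (0.96 ± 0.10, adjusted p 4.1e-07), with a second probe set at 0.18 that did not pass. Myc, the transcription factor known to drive ribosome production, was at 7.48, 7.72 and 8.10 at E9.5, at 5.81, 5.75, 5.58 and 5.36 at E11.5 and at 7.10, 7.28 and 7.39 at E13.5. All E11.5 arrays were below all others, at a distance of -1.63 ± 0.12 (3.10-fold, adjusted p 3.9e-09), by a single probe set.

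**Figure D4:**
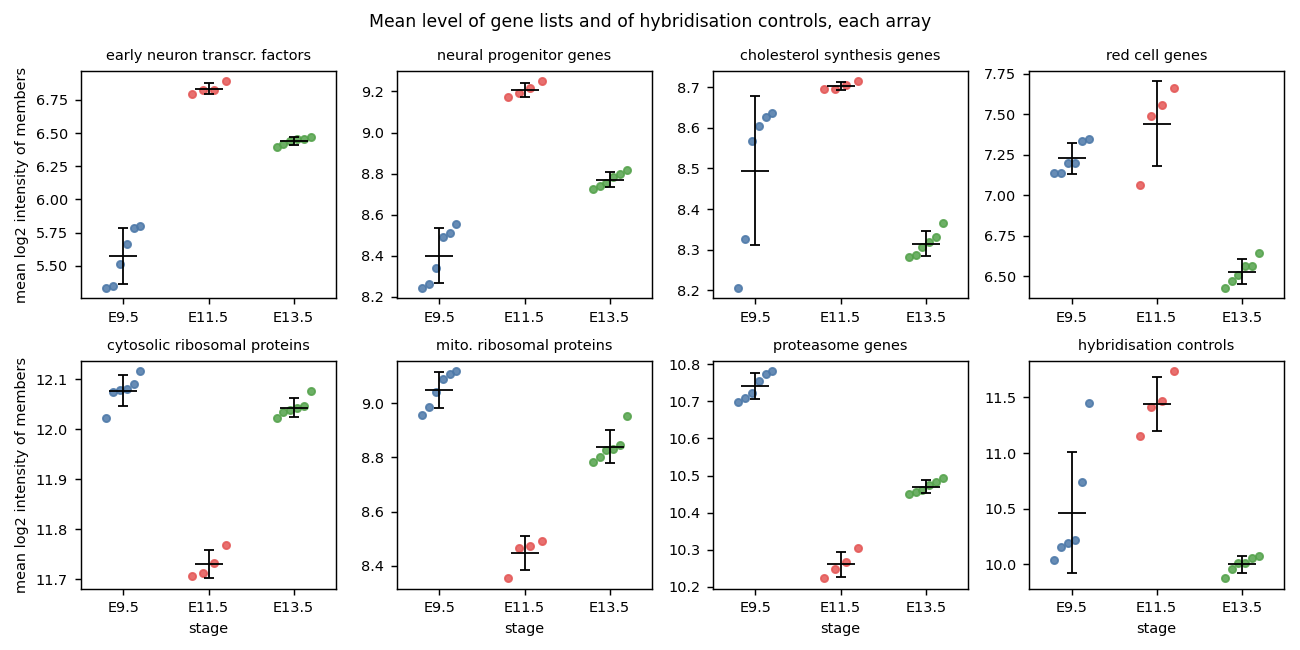
Mean log2 intensity of the measured members of 7 gene lists and of the hybridisation controls on each array at E9.5 (blue, n = 6), E11.5 (red, n = 4) and E13.5 (green, n = 6); lines are means and bars SD, and y axes differ between panels. In the lower row the E11.5 arrays of the ribosomal and proteasome lists lie below all others, and the controls are high at E11.5 and in 1 E9.5 array (11.45).

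Genes of oxidative phosphorylation gave 10 separated troughs and 0 peaks of 46, with a median contrast of -0.27. The list's mean level was 10.59 at E9.5, 10.51 at E11.5 and 10.96 at E13.5, so E11.5 lay much nearer to E9.5 than to E13.5. Ndufs8, a subunit of respiratory complex I, was at 10.13, 10.33 and 10.83 at E9.5, at 9.28, 9.35, 9.13 and 9.25 at E11.5 and at 11.12, 11.18 and 11.45 at E13.5. The E11.5 arrays lay below all others at a distance of -1.18 ± 0.12 from E9.5 (2.27-fold, adjusted p 4.3e-07), and the second probe set was separated with a contrast of -1.51. Ndufb10 (-1.0 ± 0.11, adjusted p 6.5e-07) and Ndufs7 (-0.68 ± 0.12, adjusted p 0.00026), of the same complex, followed. Ndufb10 had a single probe set, and the second of Ndufs7 was not separated, with a contrast of -0.17. Before the condition on the second probe set, 3 members were separated peaks and 13 troughs, and of 11 with a second probe set only 5 had the same sign there.

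Proteasome genes gave 11 separated troughs and 1 peak of 31, with a median contrast of -0.35 and a range of 10 to 12 troughs with any 1 array left out. The list's mean was 10.70 to 10.78 on the E9.5 arrays, 10.22 to 10.30 on the E11.5 arrays and 10.45 to 10.49 on the E13.5 arrays, without overlap. Psmb3, a subunit of the catalytic core, was 0.95 ± 0.10 below E13.5 (distance -0.95, adjusted p 4.8e-07), with both probe sets separated. Psmd13 and Psmd4, of the regulatory particle, had distances of -0.91 ± 0.09 and -0.80 ± 0.07, and their second probe sets did not pass. Psmd3, of the same particle, was the peak (0.29 ± 0.09, adjusted p 0.031), and it lost its call when any of 5 arrays was left out.

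Glycolysis and hypoxia genes gave 8 separated troughs and 1 peak of 33, and 5 troughs without E11.5 sample 52. Aldoa, the glycolytic aldolase, was at 11.77, 11.98 and 12.24 at E9.5, at 10.23, 10.20, 9.85 and 10.10 at E11.5 and at 10.61, 10.72 and 10.79 at E13.5. It was below all other arrays at E11.5 (distance -0.61 ± 0.09, adjusted p 4.9e-05) with both probe sets separated. P4ha1 and P4ha2, which hydroxylate collagen, had distances of -0.63 ± 0.12 and -0.64 ± 0.10. P4ha1 was not separated with its second probe set or with the mean of its probe sets (distance -0.31), and P4ha2 had 1 probe set. Aldoa was not separated with the mean of its probe sets either (-0.20). Vegfa, a growth factor for vessels, was the peak, at 8.31, 7.94, 7.42 and 7.61 at E11.5 (distance 0.69 ± 0.13 from E9.5, adjusted p 0.00056), above all other arrays. Its second probe set was not separated (distance 0.11). With the E13.5 arrays of either title prefix alone, 5 troughs of the list were left. Chaperone genes gave 6 troughs and 0 peaks of 35, among them Pdia3 (-0.72 ± 0.10, adjusted p 2.1e-05), a disulfide isomerase, and Cct7 (-0.41 ± 0.08, adjusted p 0.00076), a subunit of the cytosolic chaperonin with both probe sets separated. Hspa9, the mitochondrial chaperone, was 0.48 ± 0.09 below E13.5 (distance -0.48, adjusted p 0.00032). Neither Pdia3 (-0.22) nor Hspa9 (-0.17) was separated with its second probe set, and the mean of the probe sets of Hspa9 was not beyond both stages.

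Surface ectoderm genes gave 6 separated troughs and 2 peaks of 27, and 3 troughs without E11.5 sample 36, with the title prefix of E13.5 samples as a random block, with the E13.5 arrays of either prefix alone, or with log2 of the intensity plus 16. Dsp, which anchors desmosomes, was at 6.97, 7.29 and 7.95 at E9.5, at 6.46, 6.34, 5.98 and 6.58 at E11.5 and at 8.32, 8.43 and 8.61 at E13.5. The E11.5 arrays were below all others (distance -1.09 ± 0.16, adjusted p 3.9e-05), with both probe sets separated. Krt18, a keratin of simple epithelia, had a distance of -0.83 ± 0.13 (adjusted p 7.2e-05) and Cdh1, the epithelial cadherin, of -0.60 ± 0.17 (adjusted p 0.013), the latter lost without E11.5 sample 33 or with the random block. The block also ended the call of Grhl3. The peaks were Sfn (0.83 ± 0.11) and Grhl3 (0.53 ± 0.14), Grhl3 at a log2 level under 5.3. Trp63, a basal epidermal marker, was not separated.

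Endothelial and pericyte genes gave 5 separated troughs and 2 peaks of 30, and 3 troughs with the B63 arrays alone at E13.5. The peaks were the receptor Aplnr and its ligand Apln, which act together in growing vessels. Aplnr was at 9.54, 9.72 and 10.05 at E9.5, at 11.70 to 12.04 on the 4 E11.5 arrays and at 10.39, 10.47 and 10.50 at E13.5, a distance of 1.45 ± 0.09 (2.72-fold, adjusted p 1.1e-09). Its second probe set had a contrast of 0.63 and was not separated. Apln, by a single probe set, was 0.96 ± 0.14 above E13.5 (adjusted p 2.3e-05), and for both genes the E11.5 arrays lay above all others. The troughs included Flt1, a VEGF receptor (-0.63 ± 0.11, adjusted p 0.00015, both probe sets separated), Emcn (-0.63 ± 0.14, adjusted p 0.0020) and Cldn5 (-0.60 ± 0.10, adjusted p 0.00010). Pecam1, Cdh5 and Kdr, further markers of endothelium, were not separated.

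Skeletal muscle contractile genes gave 5 separated troughs and 0 peaks of 25, but their levels at E9.5 and E11.5 were near the dim end. The mean of the list was 4.35 at E9.5, 4.33 at E11.5 and 7.01 at E13.5, and the array median was 5. Myh7, Tnnt1 and Acta1 had distances from E9.5 of -0.86 ± 0.15, -0.68 ± 0.17 and -0.66 ± 0.18. With log2 of the intensity plus 16, which damps dim values, 2 of the troughs were left. Splicing factor genes gave 6 peaks and 4 troughs of 40. Hnrnpk (0.90 ± 0.08, adjusted p 5.4e-08) and Hnrnph1 (0.51 ± 0.08, adjusted p 5.1e-05) peaked in both probe sets, and U2af1 was a trough (-0.67 ± 0.11) while its partner U2af2 was a peak (0.64 ± 0.11). The troughs Srsf5 (-0.38 ± 0.09) and Snrpa1 (-0.34 ± 0.10) were smaller, and 2 troughs of the list were left without E11.5 sample 52.

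Cell cycle lists held shares near or below those over all genes, with replication troughs slightly above. Of 33 mitotic genes 2 were peaks and 1 a trough, and of 37 replication genes 3 were peaks (8.11%) and 4 troughs (10.8%). The mean of the mitotic list was 9.85, 9.31 and 8.76 in stage order. Of 26 connective tissue matrix genes 0 were separated in either direction and 2 were peaks by the wider rule, and of 25 macrophage genes 2 were peaks. Of 26 HOX genes 2 were peaks and 3 troughs.

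The 12 largest peaks by the rule for genes with several probe sets were Sema3f, Kalrn, Srr, Csdc2, Sema6c, Lamtor1, Rassf1, Hes5, Cux2, St18, Lpp and Ccdc180, with distances of 3.64 down to 1.46. Kalrn was at 6.07, 6.32 and 6.88 at E9.5, at 10.09, 9.81, 10.19 and 9.96 at E11.5 and at 6.04, 6.25 and 6.64 at E13.5. Its distance was 3.62 ± 0.14 (12.3-fold, adjusted p 5.8e-13) with the brightest probe set and 0.37 with the mean of its 8 probe sets. Srr, which makes D-serine, went from 3.24 ± 0.19 to 0.52 in the same way. Of the 12, Sema6c, Lamtor1, Rassf1 and Hes5 were separated in both probe sets.

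Lamtor1, a lysosomal anchor of nutrient signalling, was bright at every stage. It was at 10.23, 10.47 and 10.68 at E9.5, at 12.59, 12.42, 12.66 and 12.47 at E11.5 and at 10.08, 10.22 and 10.35 at E13.5 (distance 2.10 ± 0.09, 4.27-fold, adjusted p 2.6e-12), with a second probe set at 0.53. Sema6c, a membrane semaphorin, had a distance of 2.52 ± 0.14 with a second probe set at 1.43, and Rassf1, a Ras association protein, one of 1.92 ± 0.16 with a second at 0.81. The largest peaks with a single probe set were Med18, a Mediator subunit (3.05 ± 0.09, adjusted p 1.7e-14), Ppbp, a platelet chemokine (2.13 ± 0.20), Nhlh2 and Zfy2, a Y-linked zinc finger gene (1.67 ± 0.20). Single probe sets cannot be checked against another.

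The troughs named by the same rule follow. The 12 largest were Prrc2c, Ikbip, Hacd1, Dnajc17, Mrpl52, Naca, Pmm1, Map3k10, Tpgs2, Utp11, Raly and Ndufs8, with distances of -1.92 to -1.18, and 9 of them were separated in both probe sets. Naca, which binds nascent proteins at the ribosome, was at 12.69, 12.80 and 12.97 at E9.5, at 11.46, 11.51, 11.45 and 11.66 at E11.5 and at 12.99, 13.02 and 13.08 at E13.5. The E11.5 arrays were below all others at a distance of -1.30 ± 0.07 (2.46-fold, adjusted p 1.7e-10), with a second probe set at -0.96. Dnajc17, a chaperone cofactor, had a distance of -1.51 ± 0.11 and a second probe set at -1.33, and Prrc2c one of -1.92 ± 0.19 with a second at -0.55. Utp11, which processes the small subunit RNA, had one of -1.25 ± 0.09 (adjusted p 6.9e-09) with a second at -0.73. The largest with a single probe set were Tcfl5 (-1.67 ± 0.12), Myc, Ccpg1os (-1.46 ± 0.12) and Nucb2 (-1.43 ± 0.10). Ccpg1os is named as an opposite-strand transcript, and the strand its probes read was not tested.

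**Figure D5:**
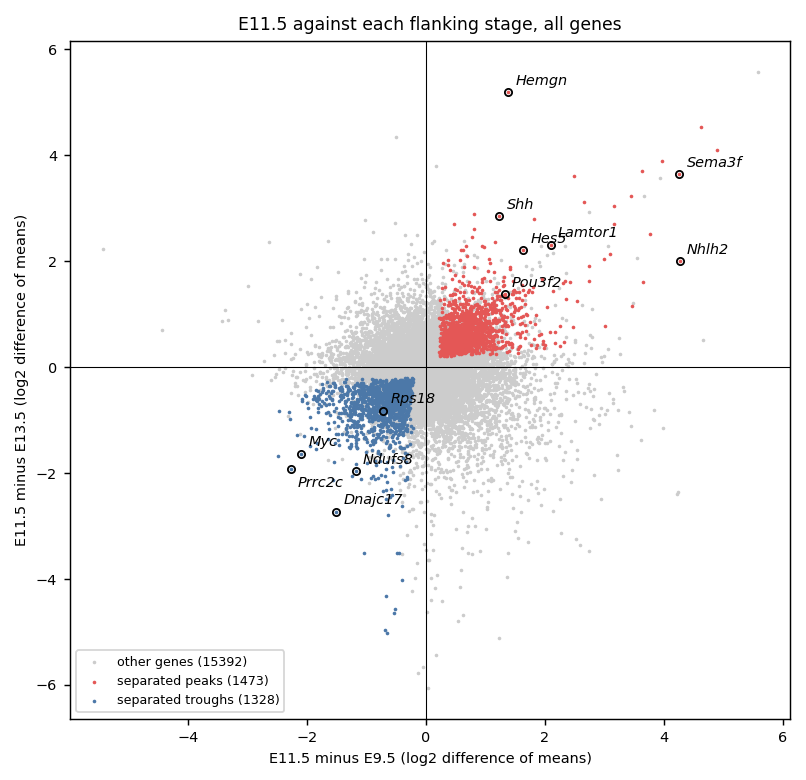
Log2 difference of E11.5 from E9.5 (x axis) and from E13.5 (y axis) for 18193 genes. The 1473 separated peaks (red) lie in the upper right and the 1328 separated troughs (blue) in the lower left, grey points are all other genes, and circles mark named genes such as Sema3f (distance 3.64) and Prrc2c (-1.92).

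The flanking stages themselves differed for some of the separated genes. Of the separated peaks, 374 (25.4%) were higher at E13.5 than at E9.5 by limma at an adjusted p under 0.05, 299 (20.3%) were lower and 800 (54.3%) had no called difference. Of the separated troughs, 356 (26.8%) were higher at E13.5, 397 (29.9%) lower and 575 (43.3%) not called. Over all genes 38.2% were not called in that comparison. A difference that was not called does not show that the level at E13.5 had returned to that at E9.5. Nhlh2 and St18 are of the first kind, Shh and Hemgn of the second, and Hbb-y and Mrpl52 of the third.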

How the data were processed

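The authors deposited 1 table of linear intensity values per probe set, rounded to whole numbers. They were made with RMA, according to the submitters' processing notes. Its version is not given in the sources available. RMA makes arrays comparable by forcing like distributions, so values are relative, and rounding makes coarse steps among dim probe sets. Arrays have no read depth, and their number limits the precision.

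Values were put on the log2 scale. Of 45101 probe sets, 64 controls, 932 naming several genes and 9160 not named here were left out, and 34945 named 1 gene. The brightest probe set on average stood for each of 18193 genes, of which 9010 had a second. No low-value filter was used. The contrasts were fitted by limma 3.58.1 (R 4.3.3) to all 16 arrays in 1 model, with Benjamini-Hochberg adjustment over all genes and a threshold of 0.05. All adjusted p of genes are limma's, and a p or distance given for a separated gene is that of the larger p. The script was tested on simulated data. Stage values are log2 intensity, and errors of distances are standard errors.

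Members, gene lists and tests were chosen with earlier results of these data known, and no set was tested. Genes were named by rule: per direction the 12 largest distances among separated genes with non-overlapping arrays and a second probe set called the same way, the 4 largest with 1 probe set, and up to 3 per list and direction, skipping gene models without a name. Exceptions are said to be named after their values were seen. Only a part of the marker genes checked against the tissue is described above. Not described were the separated Krt8 (a trough in both probe sets, distance -0.59), Hba-x (a peak, 0.60) and the dim Mip (a trough, -0.47). The other markers not described, of muscle, macrophages and lens, were not separated. The comparison of probe sets across contrasts and by class was added after seeing the data. Promoters are RefSeq's, GRCm38.p6. Alternatives covered normalization, probe sets, dim genes, variance, array weights, the title prefix of E13.5 samples, 2 E9.5 arrays together and each array in turn.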

Additional observations from a re-analysis of the deposited data

Results flagged for a closer look

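Among 318 stage groups of named genes, 9 had 1 array far from the others of its stage, measured by its gap to the nearest over the whole range. Chance alone gives about 1 in 20 groups. At E13.5 the sample B62E7K was high for Ndufs8 (log2 intensity 11.45, others 11.12 to 11.19) and Psmd13 (9.44, others 9.13 to 9.24), and low for Hmgcs1 (11.35, others 11.55 to 11.61). The sample B63E5K was low for Pmvk (7.47, others 7.58 to 7.61) and Tnnt1 (8.97, others 9.38 to 9.60). The sample B63E7K was high for Nova2 (8.03, others 7.69 to 7.80). At E9.5 the sample 13 was high for Pou3f2 (6.58, others 6.02 to 6.23) and low for Vegfa (6.82, others 7.11 to 7.25), and the sample 24 was high for Hspa9 (10.84, others 10.63 to 10.69). Each of these 9 genes kept its call with any 1 array left out.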

How the results depend on the processing

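The 123 peaks and 75 troughs of at least 2-fold became 73 and 44 when a gene's probe sets were averaged, and 80 and 40 with log2 of the intensity plus 16. Asking both of the 2 brightest probe sets to be separated, an alternative chosen after seeing the data, left 194 of 1473 peaks and 177 of 1328 troughs. Only 714 of those 1473 peaks and 538 of those 1328 troughs had a second probe set and could meet this. Under the other alternatives the counts stayed within 1.5 times: 1070 to 1576 separated peaks and 977 to 1447 troughs. They were lowest for peaks with the title prefix of E13.5 samples as a random block and for troughs with the B63 arrays alone. A like count did not mean the same genes. With the second-brightest probe sets, 910 of the 1473 peaks and 930 of the 1328 troughs were separated again. That alternative leaves unchanged the values of the 759 peaks and 790 troughs with a single probe set. With 1 array left out there were 1316 to 1491 peaks and 1198 to 1355 troughs, and 120 to 145 and 69 to 84 of at least 2-fold. Of 106 named genes, 100 kept their call with any 1 array left out, and Six3, Smad6, Psmd3, Grhl3, Cdh1 and Snrpa1 lost it in at least 1 case. Of the 60 with several probe sets, 33 were not separated with the second-brightest, and the cause was not tested. No named gene reversed direction under these alternatives. With the second-brightest probe sets a reversal was not possible, because named genes had to have the same sign in both. No paired analysis was possible because the stages share no replicate numbers.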
